A study of Drosophila melanogaster with 3 samples.

Results

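The genes described here encode the Notch receptor, its ligands and proteins that modify the pathway. They were set by name, 10 of the 13968 protein-coding genes on the chromosome arms: N, Delta, Ser, fng, kuz, neur, mib1, Su(H), H and numb. All 10 were found by symbol in the annotation of the dm6 build. A peak was assigned to a gene where its summit lay in the gene body or within 5 kb of it.

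The data are chromatin immunoprecipitation with sequencing (ChIP-seq) from Drosophila melanogaster. The animals carried svp, an orphan nuclear receptor gene of the COUP-TF family, tagged at its C-terminus with eGFP, and chromatin of whole white prepupae of pooled sexes was precipitated with an antibody against GFP. The white prepupa is the stage at which metamorphosis starts. There is 1 group, with 3 biological replicates from 1 transgenic line, no GFP-free or input library is among the samples used here, and the tissue in which a peak arises cannot be told from whole animals. Nothing in these files measures expression.

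Notch is a transmembrane receptor that is activated by ligands on neighbouring cells. After ligand binding the receptor is cut outside and then inside the membrane, and its freed intracellular part joins the DNA-binding protein Su(H) in the nucleus to turn on target genes. In flies the pathway is known for setting boundaries such as the wing margin, for singling out sensory organ precursors and for choosing between daughter cell fates, processes that go on in imaginal tissues around the start of metamorphosis.

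The peak list used first is one the authors had filtered by the irreproducible discovery rate (IDR), a measure of how well peak ranks repeat between replicates. It is called the IDR-thresholded list here, is on the dm6 build, and was made from the 3 replicates and their pool. It held 5443 peaks, of which 5425 lay on the arms. The signal value of a peak is the authors' deposited value, of unstated scale, and is compared only within 1 list. Each replicate's own list held 30000 peaks, and its ranks run from 1 for the highest signal value. Replicate support means that an IDR-thresholded summit lay inside one of the 5000 highest peaks of that replicate. The IDR-thresholded list was itself made from these replicates, so support is not independent of it. The number of reads per library is unknown.

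The sequences around the summits of these genes are AT-rich at 35.5% GC, as are those of all IDR-thresholded summits at 38.8%. Single summits of these genes ranged from 22.8% to 54.5%. Motif matches are given further below beside the shares over all summits. For the highest summit that all 3 replicates supported at neur, N, kuz, Delta and Ser, and for the only summit with a nuclear receptor half-site, the 101 bases centred on the summit are given below, 5′ to 3′ on the plus strand, from the RefSeq release 6 genome sequence in dm6 coordinates. None of these windows touches an annotated UTR. Capitals mark exact matches to the half-site AGGTCA or to a GATA site (AGATAA or AGATAG or TGATAA or TGATAG) on either strand, and windows all in lower case hold neither.
neur, intron, chr3R:9031981-9032081: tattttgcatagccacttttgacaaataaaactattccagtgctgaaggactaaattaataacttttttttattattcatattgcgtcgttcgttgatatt
N, intron, chrX:3162458-3162558: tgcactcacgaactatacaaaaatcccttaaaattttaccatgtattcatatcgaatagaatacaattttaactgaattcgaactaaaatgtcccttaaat
kuz, intron, chr2L:13571074-13571174: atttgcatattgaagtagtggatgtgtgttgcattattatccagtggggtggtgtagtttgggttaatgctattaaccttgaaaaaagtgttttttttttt
Delta, intron, chr3R:19314418-19314518: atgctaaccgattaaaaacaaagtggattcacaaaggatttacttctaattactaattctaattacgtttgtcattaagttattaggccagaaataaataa
Ser, downstream, chr3R:27171255-27171355: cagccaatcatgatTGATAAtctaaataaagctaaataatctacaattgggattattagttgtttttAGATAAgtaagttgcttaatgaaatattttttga
neur, upstream, chr3R:9043711-9043811: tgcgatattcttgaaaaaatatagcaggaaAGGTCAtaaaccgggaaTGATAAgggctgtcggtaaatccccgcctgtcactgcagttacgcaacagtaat

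IDR-thresholded peaks lay at 7 of the 10 genes, and the 3 without one were the 3 shortest. N, Delta, Ser, fng, kuz, neur and numb together had 21 IDR-thresholded summits, while mib1, Su(H) and H had none. Across all protein-coding genes the share with a summit in the body or within 5 kb was 39.2%. Among genes of 10 kb or longer it was 61.4%, and all 7 genes of the set in that class had a summit. Among genes under 10 kb it was 35.6%, and none of the 3 genes of the set in that class had a summit. The number of summits per 10 kb was 0.587 over the regions of the 10 genes. It was 0.445 over all protein-coding genes with the same flanks and 0.394 over the arms. All genes of 10 kb or longer had 0.433 and shorter ones 0.503, against 0.674 and 0 for those of the set. By gene it was 1.72 at neur, 1.19 at fng, 0.932 at Ser and 0.545 at numb. It was 0.422 at N, 0.403 at kuz and 0.299 at Delta. The top 5000 peaks of replicates 1, 2 and 3 gave 0.615, 0.503 and 0.643 per 10 kb over the regions of the 10 genes (mean 0.587 ± 0.0741, SD, n = 3). No top 5000 density was taken over other genes. Counting the gene body alone, 6 of the 10 genes kept a summit, against 13.4% of all protein-coding genes. These 6 are all 10 kb or longer, while the 13.4% is over genes of every length, so the comparison is not matched for length. All summits of fng lay outside its body. The density in the bodies of the set was 0.504 per 10 kb, and none was taken over the bodies of all genes.

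**Figure D1:**
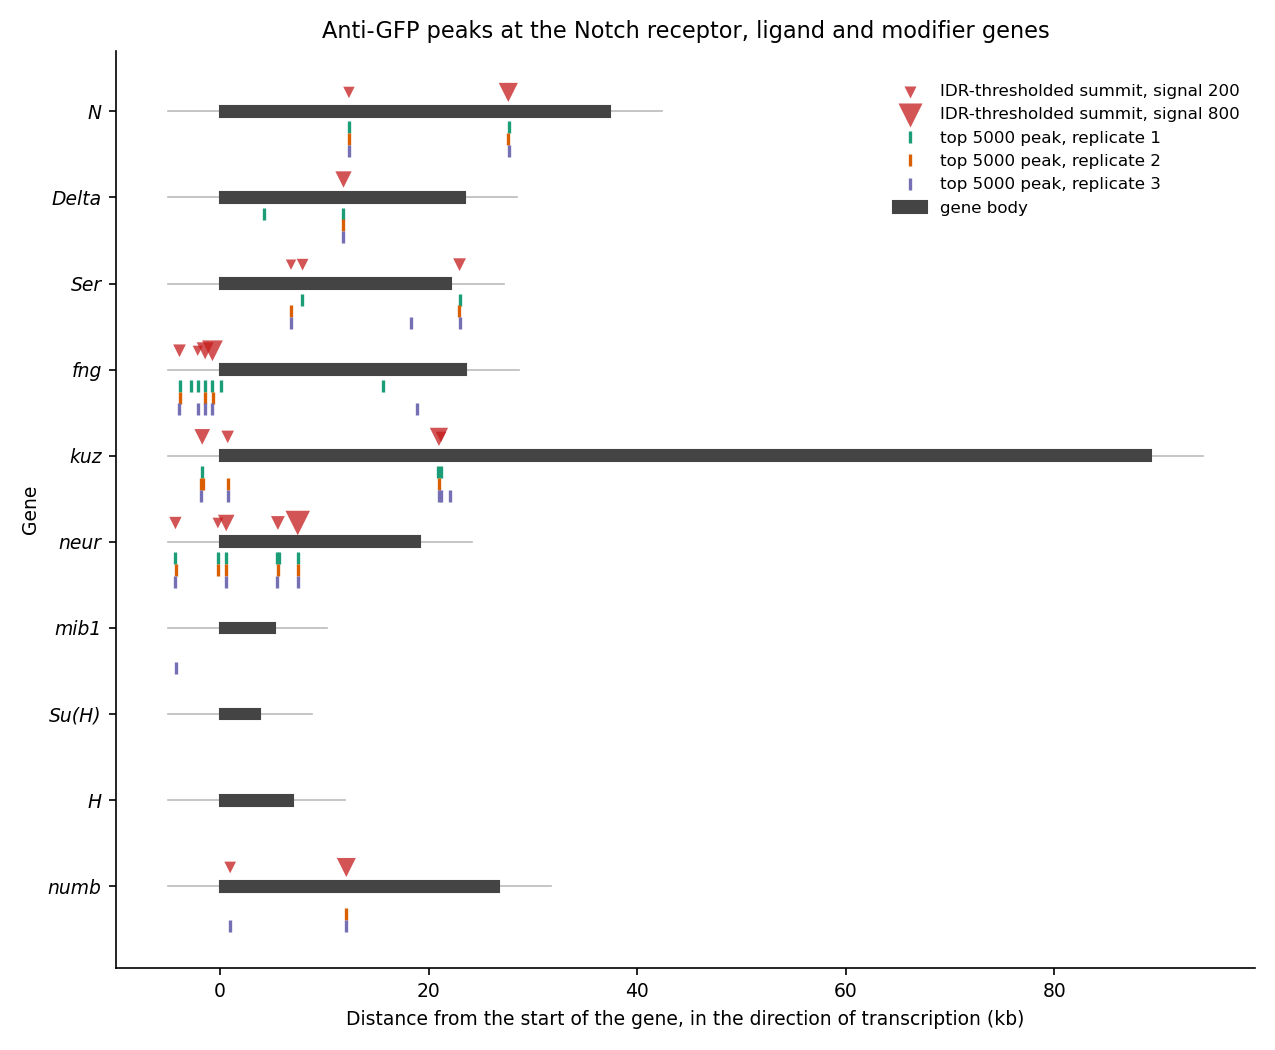
Map of the 10 genes with distance from the start of the gene in kb on the horizontal axis, read in the direction of transcription, and genes on the vertical axis. Dark bars are gene bodies with 5 kb of flank as a line, red triangles are IDR-thresholded summits with area by signal value, and coloured ticks are top 5000 peaks of replicates 1, 2 and 3. Summits lie deep in introns at N and Delta, upstream of fng, and around both promoters of neur, and mib1, Su(H) and H have none.

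The receptor gene N (FBgn0004647, X 3134870 to 3172221, plus strand) had 2 summits, both in introns and far from its start. The higher one, in the peak X 3162381 to 3162649 with a signal value of 507, lay in intron 5, 27638 bp downstream of the N TSS (transcription start site). It ranked 327, 1498 and 1043 in replicates 1, 2 and 3, with the summits of the 3 replicates within 14 bp of each other. The window around it is 27.7% GC. The lower one (X 3146994 to 3147449, signal 180) lay in intron 1, 12352 bp from the TSS, and ranked 3003, 4289 and 4449. Both were supported by all 3 replicates, and no IDR-thresholded summit lay at the N promoter. The lists of 30000 held 14, 11 and 13 peaks over the 47352 bp of the N region. In each replicate 2 of these were among the top 5000. The same lists held 29999, 29973 and 29976 peaks over the 137547960 bp of the arms.

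Both ligand genes had IDR-thresholded peaks, 1 at Delta and 3 at Ser. Delta (FBgn0000463, 3R 19302731 to 19326217, minus strand) had 1 summit, in its intron 3 and 11749 bp from its TSS (3R 19314360 to 19314573, signal 368). It ranked 1031, 1519 and 1873 in replicates 1, 2 and 3, and the replicate summits lay within 24 bp of each other. All 3 replicates thus placed the highest peak of Delta at the same intronic position. In replicate 1 a further top 5000 peak, ranked 3826, lay 4172 bp from the TSS. In replicate 2 peaks 4167 and 4372 bp from the TSS ranked 14209 and 11762, and no IDR-thresholded peak lay there.

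Ser (FBgn0004197, 3R 27172090 to 27194267, minus strand), which encodes the ligand Serrate, had 3 summits with signal values of 148, 190 and 225, all near or below the median of 218 over all arm summits. The highest (3R 27171077 to 27171532) lay 785 bp past the end of the gene, and its window holds the 2 GATA sites shown in capitals above. It was the only Ser summit supported by all 3 replicates, at ranks 2253, 3458 and 3035. The other summits lay 1108 bp apart in intron 4, and the replicates ranked them in opposite order. The summit at 6525 bp from the TSS ranked 7014 in replicate 1, against 4190 and 3889 in replicates 2 and 3. The summit at 7633 bp ranked 1856 in replicate 1, against 5344 and 5330 in replicates 2 and 3.

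Of the genes acting on the receptor, fng and kuz had 4 summits each and numb had 2. The fng gene (FBgn0011591, 3L 20925891 to 20949512, minus strand) encodes Fringe, a glycosyltransferase that adds sugars to Notch and so changes its response to each ligand. It had 4 summits, all upstream of its single TSS, at 739, 1439, 2151 and 3901 bp, with signal values of 597, 401, 146 and 224. Those at 739 and 1439 bp were high in every replicate. The first ranked 405, 689 and 420, and the second 834, 988 and 1342, in replicates 1, 2 and 3. The summit at 3901 bp, which was 3337 bp from a TSS of Sems, ranked 1548, 4727 and 2920. The summit at 2151 bp ranked 2601 and 3092 in replicates 1 and 3, but 27895 in replicate 2. No IDR-thresholded summit lay inside the fng gene. In single replicates, top 5000 peaks lay there at ranks 2957 and 4333 in replicate 1 and 4229 in replicate 3, the second of them 38 bp from the TSS. Peaks of lower rank lay at or near these places in other replicates. Near the TSS they ranked 9160 and 10180 in replicates 2 and 3. Near the peaks of ranks 2957 and 4229, replicate 2 had peaks of ranks 10409 and 13473.

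The kuz gene (FBgn0259984, 2L 13550139 to 13639411, plus strand) encodes Kuzbanian, the ADAM-family metalloprotease that makes the cut outside the membrane. It is the longest of the 10 genes at 89273 bp, and its 4 summits amount to 0.403 per 10 kb, close to the density over the arms. All 4 lay upstream of the TSS or within 21186 bp downstream of it. The highest (2L 13570961 to 13571179, signal 461) lay in intron 3, 20985 bp from the TSS, and ranked 516, 1787 and 671 in replicates 1, 2 and 3. A second summit with a signal value of 152 lay 201 bp away in an overlapping interval, and ranked 2707 and 5289 in replicates 1 and 2. In replicate 3 the peak of rank 671 held both summits, and a separate peak of rank 3088 had its own summit at the second. Another (2L 13550633 to 13551088, signal 218) lay 722 bp downstream of the TSS in intron 1 and ranked 5080, 2413 and 2691. Its window is 53.5% GC and holds 3 matches to GAGAG on the minus strand. The fourth (signal 339) lay 1721 bp upstream of kuz, inside the neighbouring gene B4 and 647 bp from a TSS of B4, and ranked 1626, 1154 and 1955.

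The gene numb (FBgn0002973, 2L 9437469 to 9464184, plus strand) encodes an inhibitor of Notch that is passed to 1 daughter cell in asymmetric divisions. Its 2 summits lay in peaks of replicates 2 and 3 and in none of replicate 1. The higher (2L 9449406 to 9449753, signal 502) lay 261 bp upstream of an internal TSS, ranked 934 and 479 in replicates 2 and 3, and lay in none of the 30000 peaks of replicate 1. The lower (2L 9438200 to 9438655, signal 189) lay 959 bp downstream of the first TSS, ranked 5464 and 3323, and was likewise in no peak of replicate 1. Over the 36716 bp of the numb region replicate 1 had 1 peak in all, of rank 24717, against 11 in replicate 2 and 5 in replicate 3. Replicate 1 lacked other summits as well. Of the 726 arm summits at least as high as the higher numb summit, 54 (7.44%) lay in no peak of replicate 1, against 2 and 6 in no peak of replicates 2 and 3. The part of sequencing depth or coverage in this difference was not tested.

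Of the ubiquitin ligase genes for the ligands, neur had the most and the highest IDR-thresholded peaks of the set, and mib1 had none. Both proteins promote the endocytosis of Delta and Serrate that lets these ligands activate Notch on the next cell. The neur gene (FBgn0002932, 3R 9020348 to 9039471, minus strand) had 5 summits, or 1.72 per 10 kb. Of all protein-coding genes, 1.58% had more summits. The genes fng, kuz and neur each had at least 4 summits, as did 5.30% of all protein-coding genes. Both shares are over genes of every length, while fng, kuz and neur are all 10 kb or longer.

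The highest neur summit (3R 9031865 to 9032187, signal 830) lay in an intron, 1700 bp downstream of an internal neur TSS. It ranked 241 in the IDR-thresholded list and 175, 302 and 299 in replicates 1, 2 and 3, the best rank of any of the 10 genes in each replicate, with replicate summits within 32 bp. Its window, the first sequence above, is 27.7% GC. A summit 202 bp upstream of the same TSS (3R 9033705 to 9034160, signal 265) ranked 2254, 2602 and 2069. The summits with signal values of 379 and 158 lay near the distal neur promoter, where hyx starts on the other strand. They were 128 and 76 bp from a TSS of hyx and 583 and 219 bp from the neur TSS, so that they cannot be assigned to either gene by position. The first of them (3R 9038793 to 9038993) lay in a 5′ UTR of hyx and an intron of neur, and ranked 1399, 1077 and 1408. The second ranked 4044, 4681 and 5683, so it lay outside the top 5000 of replicate 3. The fifth (3R 9043533 to 9043988, signal 212) lay 4290 bp upstream of neur in an intron of Nmdmc, and ranked 3617, 2711 and 3231. It was the only one of the 21 with a half-site, 20 to 15 bp to the left of the summit, beside a GATA site.

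**Figure D2:**
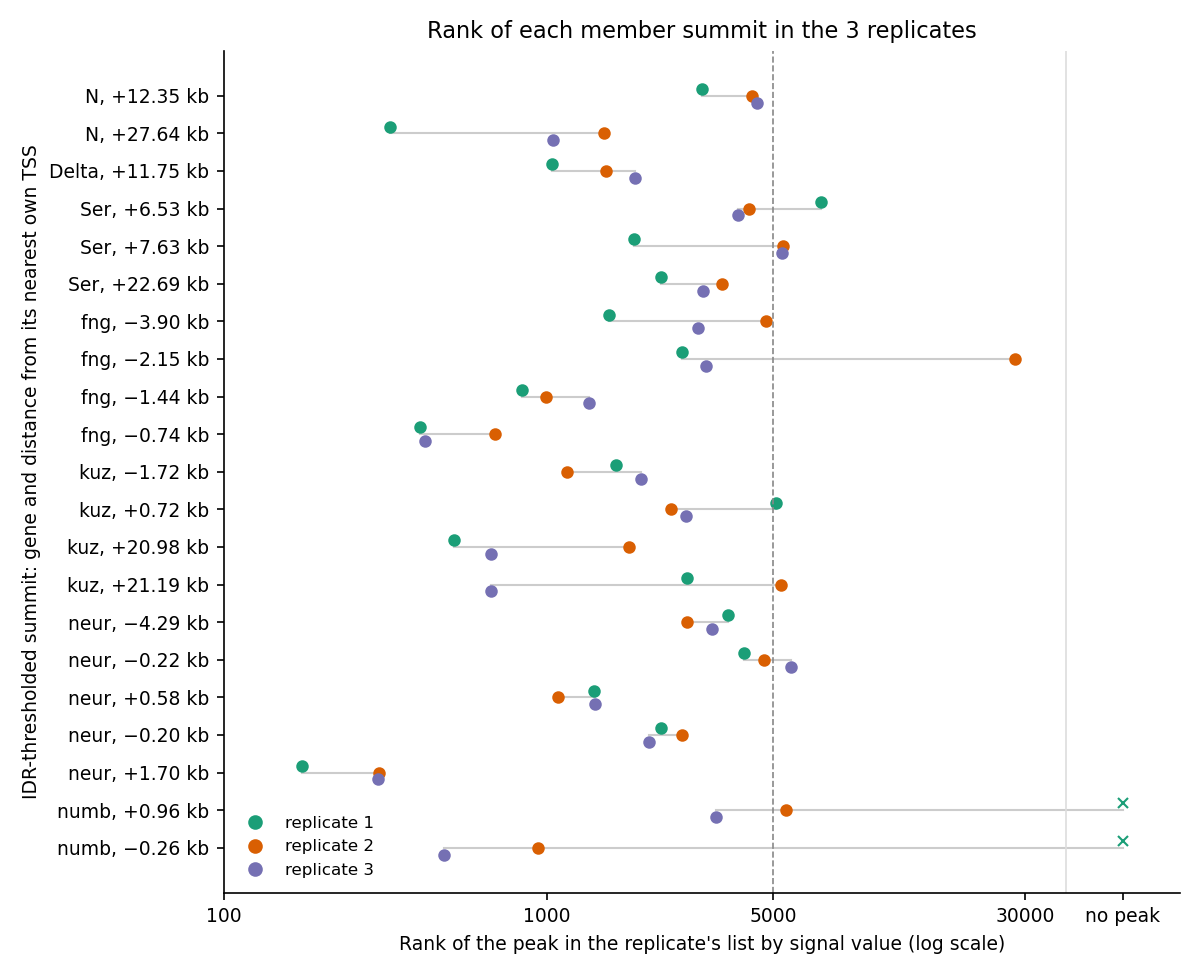
Rank of each of the 21 IDR-thresholded summits in the list of replicates 1, 2 and 3, on a log axis, with the gene and the distance from its nearest own TSS in kb on the vertical axis. The dashed line is rank 5000, and crosses mark summits in no peak of that replicate. Where more than 1 peak of a replicate holds a summit, the best rank is drawn. The intronic neur summit has ranks of 175, 302 and 299, and both numb summits are missing from replicate 1.

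The other ligase gene, mib1 (FBgn0263601, 3L 16006552 to 16011812, minus strand), had no IDR-thresholded summit but was listed with lower peaks in all 3 replicates. A place about 4.2 kb upstream of it was listed in each replicate, at 4168, 4177 and 4255 bp from its TSS, with ranks of 14225, 9965 and 4180 in replicates 1, 2 and 3. The pooled list held 2 peaks in the mib1 region, the higher at rank 6525.

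The nuclear genes of the set were without peaks in the IDR-thresholded list. Su(H) (FBgn0004837, 2L 15039488 to 15043334, plus strand) encodes the DNA-binding partner of activated Notch. In its region, replicates 1 and 2 had 0 peaks, and replicate 3 had 2, the higher at rank 6233 and 246 bp upstream of the TSS. H (FBgn0001169, 3R 20621938 to 20628915, plus strand) encodes Hairless, which binds Su(H) and recruits corepressors. Within 5 kb of it no list held a peak, and it was the only gene of the set of which this was true. A summit with a signal value of 471 lay just past the limit, 5245 bp downstream of H and 572 bp from a TSS of Pi3K92E, and ranked 853 and 884 in replicates 2 and 3 while in no peak of replicate 1. Inside the limit the farthest summits were those of fng and neur at 3901 and 4290 bp. Outside it, up to 10 kb, there were 5 summits, of which 2 were upstream of neur, 1 upstream of mib1 at 7534 bp, and 1 upstream of numb at 6155 bp, 91 bp from a TSS of scat.

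The 3 replicates gave similar totals for the set and differed at single genes. The top 5000 peaks of replicates 1, 2 and 3 included 22, 18 and 23 peaks in these regions (mean 21.0 ± 2.65, SD, n = 3). Genes of the set with such a peak numbered 6, 7 and 8, against 35.0%, 43.3% and 41.3% of all protein-coding genes. In the lists of 30000 the totals were 80, 108 and 84, and 8, 8 and 9 genes had a peak, against backgrounds of 65.0%, 77.4% and 76.7%. None of these backgrounds is matched for gene length. Replicate 1 had more peaks than the other replicates at Ser (19, 11 and 8), replicate 2 at fng (18, 28 and 17) and mib1 (1, 10 and 4), and replicate 3 at kuz (9, 16 and 25). Among top 5000 peaks of replicates 1, 2 and 3, N had 2, 2 and 2, neur 6, 5 and 4, kuz 3, 4 and 5, and fng 7, 3 and 5.

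**Figure D3:**
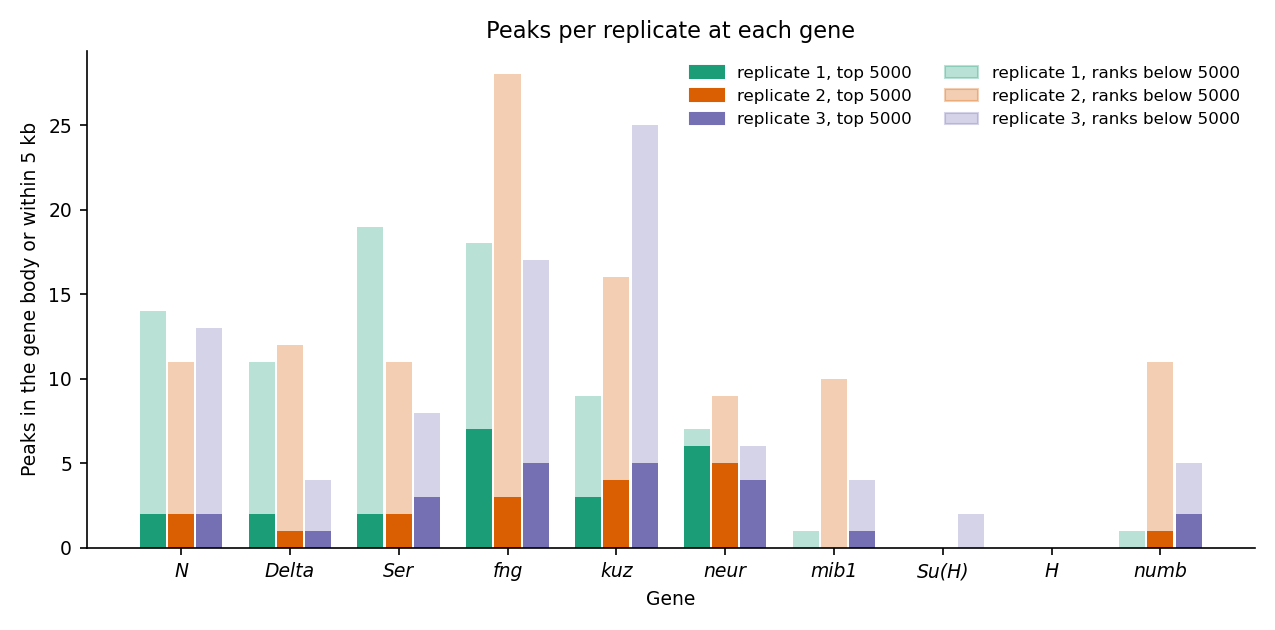
Number of peaks in the body or within 5 kb of each gene in replicates 1, 2 and 3, with top 5000 peaks in full colour and lower ranks in pale colour stacked to the total. Totals differ between replicates at fng, kuz, Ser and mib1, with 28 peaks at fng in replicate 2, and N has 2 top 5000 peaks in each replicate.

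Of the 21 summits, all 3 replicates supported 13 (61.9%, exact 95% binomial interval 38.4 to 81.9), against 56.7% of all arm summits. The interval covers counting error over summits only. The 13 lay at 6 genes, N, Delta, Ser, fng, kuz and neur, while 27.6% of all protein-coding genes had such a summit. That share is over genes of every length and is not matched for it. Of the other summits, 6 were supported by 2 replicates and 2 by 1. At the 13, the summits of the 3 replicates spanned 14 to 137 bp, with a median of 49.0 bp, close to the median of 44.0 bp over all 3076 arm summits with full support.

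The positions of the 21 summits are given beside those of all arm summits as a description. The binomial intervals treat the summits as independent, though they lie at 7 genes and some are close together. Only summits in a gene body or within 5 kb of it were taken, which bears on the shares in introns and between genes. There were 12 in introns (57.1%, exact 95% binomial interval 34.0 to 78.2), against 44.1% of all arm summits. Between genes lay 5 (23.8%, exact 95% binomial interval 8.22 to 47.2), against 16.6%. There were 4 within 500 bp of a protein-coding TSS (19.0%, exact 95% binomial interval 5.45 to 41.9), against 32.7% of all arm summits. With 1000 bp as the limit the share was 38.1%, and no share of all arm summits was taken at that limit. Only neur and numb had a summit within 500 bp of a TSS of their own, 2 of the 10 genes, against 12.6% of all protein-coding genes. More than 5000 bp from any protein-coding TSS lay 8 of the summits, at N, Delta, Ser and kuz (38.1%, exact 95% binomial interval 18.1 to 61.6), against 25.5% of all arm summits. For 7 of the 21 the nearest TSS belonged to another gene, namely CG18508, spn-D, Sems, Rel, hyx at 2 summits, and B4. In height the summits were near those of the arms, with a median signal value of 225, a lower quartile of 189 and an upper quartile of 401, against 218, 157 and 359 over the arms. Those of neur at 830 and fng at 597 were among the highest 10% of the list, 2 of 21 (9.52%) against 9.84% of the arm summits.

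**Figure D4:**
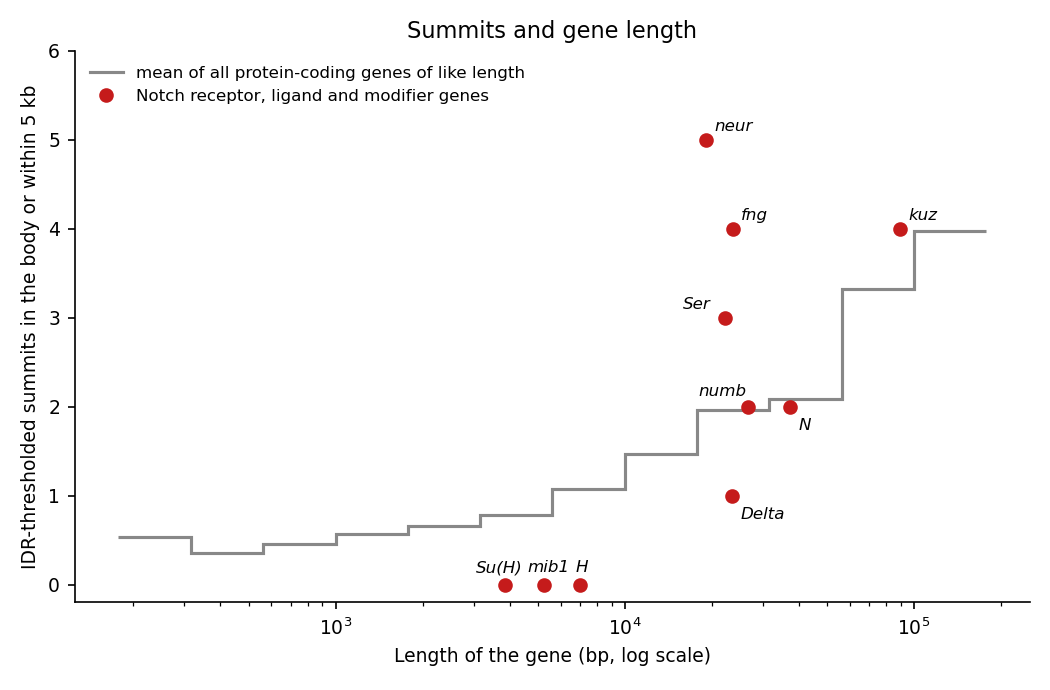
Number of IDR-thresholded summits in the body or within 5 kb against gene length in bp on a log axis, with the 10 genes as points and the mean of all protein-coding genes of like length as a stepped line. The points of neur with 5, fng with 4 and Ser with 3 summits lie above the line, Delta with 1 lies below it, and mib1, Su(H) and H lie at 0.

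The counts can also be set beside those of genes of like length. Protein-coding genes between 17782 bp and the next class limit of 31622 bp averaged 1.96 summits. In this class neur had 5, fng 4, Ser 3, numb 2 and Delta 1, so the genes of the set lay on both sides of the mean. N, at 37352 bp, had 2 against a mean of 2.09 in its class, and kuz had 4 against 3.32. Among other genes, 163 had 5 summits as neur did, of which MED15, larp and Gk2 had the highest peaks, with signal values of 3228, 2367 and 1906.

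Matches to each of the motifs searched lay at 4 or fewer of the 21 summits. Within 50 bp of the summit the half-site AGGTCA was found at 1 of 21 summits, against 5.35% of all 5425 IDR-thresholded windows and 2.73% of 1356741 consecutive windows of the same length over the arms. A GATA site was found at 4 (19.0%), against 29.1% and 16.6%. They were at Ser, at 2 summits, at neur and at numb. The GAGA site GAGAG was found at 3, against 14.0% and 11.5%, and the E-box CAGCTG at 1, the neur summit near hyx, against 3.89% and 4.22%. The Su(H) site (CGTGAGAA or CGTGGGAA or TGTGAGAA or TGTGGGAA) was found at 0, against 0.829% and 0.993%, and the DNA replication-related element TATCGATA at 0, against 0.406% and 0.277%. All were exact matches on either strand. The 21 windows were 35.5% GC, against 38.8% for all IDR-thresholded windows and 42.1% for the arms. A match describes letters only, and the absence of one says nothing about a factor.

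Other genes of the pathway, 43 in 7 lists by role, had summits in 23 cases, to be read against the same background of 39.2%. They had 48 distinct summits, of which 24 were supported by all 3 replicates. Genes of 10 kb or longer had a summit in 9 of 13 cases, against 61.4% of all protein-coding genes of that length, and shorter ones in 14 of 30, against 35.6%. Several short genes share 1 summit, so the counts by gene are not counts of peaks.

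The nuclear cofactor list had summits at 6 of 9 genes. The highest were at mam, which encodes Mastermind, the coactivator that joins Notch and Su(H) (8 summits, highest signal 679), and at the corepressor gene Smr (6 summits, 512), while insv and kto had none. In the Bearded family, small proteins that inhibit Neur, 6 of 8 genes had a summit through 8 distinct summits. The distance from a TSS of these 6 genes to the nearest summit ran from 523 bp at E(spl)m2-BFM to 5272 bp at Brd. The highest was at E(spl)malpha-BFM with 792, followed by E(spl)m2-BFM and E(spl)m4-BFM with 541 each, which may be a shared summit. No summit of E(spl)m4-BFM was supported by all 3 replicates. BobA and Tom had none. Ubiquitination and trafficking of the receptor had 4 of 7, with l(2)gd1 at 996 and the ligase gene Su(dx) at 522, and Cbl and Nedd4 without.

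Among genes for ligand activity 2 of 4 had a summit, aux at 415 and mib2 at 198, and lqf and wry did not. Numb partners had 3 of 6, with the clathrin adaptor gene AP-2alpha at 414 and the kinase gene Nak at 400, and mira and pon had none. Genes of receptor processing had 2 of 6. Kul, a metalloprotease gene related to kuz, had the highest peak near any of the 43 genes, with a signal value of 1860. No IDR-thresholded summit lay closer than 8888 bp to a TSS of Kul. The gene aph-1, for a subunit of the gamma-secretase that cuts Notch inside the membrane, had 325. The gamma-secretase genes Nct and Psn had none. Receptor glycosylation apart from fng had 0 of 3, O-fut1 and rumi included.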

How the data were processed

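The authors deposited peak lists in narrowPeak format. Per the deposited manifests, the inputs of a replicate's dm6 list were its own alignments plus 1 control file, the same for all replicates. A pooled list used all 3, and the IDR-thresholded list was derived from these. The aligner, the peak caller and the threshold on the IDR were not given in the sources used here. Per peak, the signal value and −log10 q-value are as deposited by the authors. The q-value was not used in any result. Read depth is unknown, and the fixed length of the replicate lists says nothing about it.

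Summit positions count from 1 on dm6, and all arm peaks were checked to lie within the arm lengths. Genes and TSSs are from Ensembl 115 (FlyBase release 6.54) and bases from the RefSeq release 6 sequence. A promoter is within 500 bp of a protein-coding TSS. No test was run, because there is 1 group and the genes were set by name. Of the 43 other pathway genes, 3 were matched by synonym. The text names all 10 genes, the genes nearest their summits, and up to 2 genes with and 2 without a summit per list. The genes, lists and motifs were chosen with earlier results of these data known. The counting, support and motif steps were run on simulated data with known answers. The simulated replicate list was a subset of the same peaks, so false support was not checked. Of the motifs, only the half-site was planted. Python 3.11.15 was used with numpy 2.4.6, pandas 2.3.3 and scipy 1.17.1. The dm3 lists were not used here. The sequence at the fng summits is not reported here.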

Additional observations from a re-analysis of the deposited data

How the results depend on the processing

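The count of 7 genes with a summit ranged from 6 to 9 over all alternatives, with 9 for flanks of 10 kb, where mib1 and H gained one and 53.3% of all protein-coding genes had one. With the gene body alone, where 13.4% of genes of every length had one, the 21 summits became 13 and the 13 with full support became 7. The density became 0.504 per 10 kb and the 23 other pathway genes became 9. The higher-signal 50% of peaks left 12 summits, or 0.335 per 10 kb, with no like density taken over other genes. Leaving out replicates, which asks for support by both others, gave 6 to 7 genes, 14 to 16 summits and 0.391 to 0.447 per 10 kb. The lowest of these densities, 0.391, is not comparable with the 0.394 over the arms, since the arms were not counted with that support. The mean of 21.0 peaks per replicate was 10.7 in the top 2500, 40 in the top 10000 and 90.7 in the whole lists, as the number of peaks taken sets it. The promoter share was 38.1% within 1000 bp, with no like share taken over all arm summits. Motif counts changed with the window. Within 25 bp of the summit GATA sites were at 2 of 21 summits, against 15.7% of all summits, and within 150 bp there were 7, with 1 Su(H) site, 2 half-sites, 6 GAGA sites and 5 E-boxes. Over all summits the shares within 150 bp were 56.1%, 2.78%, 10.6%, 40.2% and 14.2%. The remaining alternatives, among them the pooled list, flanks of 2 kb and other definitions of support, kept each value within 1.5 times or within the spread between replicates. With depth unknown, a missing peak in 1 replicate does not show that binding was absent there.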
